A study of Mus musculus with 8 samples.

Results

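The perilipins, the Cide proteins and the cofactors of lipolysis are the proteins that coat lipid droplets and decide how their triglyceride is stored or released. To examine where the silencing histone mark H3K27-me3 lay around their genes in fasted mouse liver, all enriched regions of 2 ChIP-seq region lists within 50 kb of a start site or over a gene body were collected for 10 genes of 21938 protein-coding genes. The genes were taken by name: Plin1, Plin2, Plin3, Plin4, Plin5, Cidea, Cideb, Cidec, G0s2 and Abhd5. The livers were from male C57BL/6 mice with floxed alleles of JMJD3, the demethylase that removes this mark, and the floxed alleles were carried by both groups. The first group received AAV-TBG-Cre, in which the hepatocyte promoter TBG drives the Cre recombinase so that downregulation of JMJD3 is directed to hepatocytes and not to the other cells of the liver, and the control group received AAV-GFP. The viruses were given at 8 weeks of age, and liver tissue was taken 12 weeks later from mice fasted for 16 h. Each group had 2 H3K27-me3 libraries and 2 input libraries, but the deposited files hold 1 list per group, made from both replicates. There were thus no replicate values, no spread between mice and no test of a difference between the groups. The deletion itself could not be checked, since a list of regions gives no measure of Kdm6b, the gene of JMJD3.

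In the droplet coat, perilipins limit the access of lipases to triglyceride. Plin1 is the major coat protein of adipocytes and holds Abhd5 away from the lipase Pnpla2 until lipolysis is stimulated, Plin2 is the main coat protein of the hepatocyte droplet, Plin3 moves between the cytosol and young droplets, Plin4 is found mainly in fat and muscle, and Plin5 links droplets to mitochondria in tissues that oxidise fat. The Cide proteins act where droplets meet and promote their growth, and in liver Cideb also takes part in the lipidation of secreted lipoproteins, while Cidea and Cidec are low in lean liver and are known for their rise in fatty liver. Abhd5 activates Pnpla2 and G0s2 inhibits it.

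H3K27-me3 covered the start site of 1 of these 10 genes, Cidea, and did so in both lists. The start sites of the other 9 genes had no region within 1 kb in either list. Within 15 kb of a start site, the window used by the study, 6 genes had a region in AAV-Cre (Plin1, Plin3, Plin5, Cidea, Cideb and Abhd5) and 3 in AAV-GFP (Plin1, Cidea and Cideb). Plin2 and G0s2 (20.0% of the 10) had no region within 50 kb or over the body in either list, against 35.7% of all protein-coding genes. Most regions counted for these genes had another gene's start site nearer to them. Livers hold several cell types, and in bulk chromatin a mark on more cells of a type and more of the mark per cell cannot be told apart.

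These counts were read against the share of all protein-coding genes called by the same rule. Within 1 kb, 1 of 10 genes was marked in each list, against 23.9% of all protein-coding genes in AAV-Cre and 16.6% in AAV-GFP. Within 15 kb, the 6 genes in AAV-Cre (60.0%) stood against 41.5% of all genes, and the 3 genes in AAV-GFP (30.0%) against 27.9%. The 3 genes with a region within 15 kb only in AAV-Cre, namely Plin3, Plin5 and Abhd5, were read against a background of 14.8%, and 0 genes had one only in AAV-GFP, against 1.22% of all genes. Within 50 kb or over the body, 8 genes were marked in AAV-Cre against 62.2% of all genes, 7 in AAV-GFP against 47.2%, and 1, Cidec, only in AAV-Cre against 17.1%. In a set of 10 genes each gene is worth 10.0 percentage points, and no test was made of these counts.

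**Figure D1:**
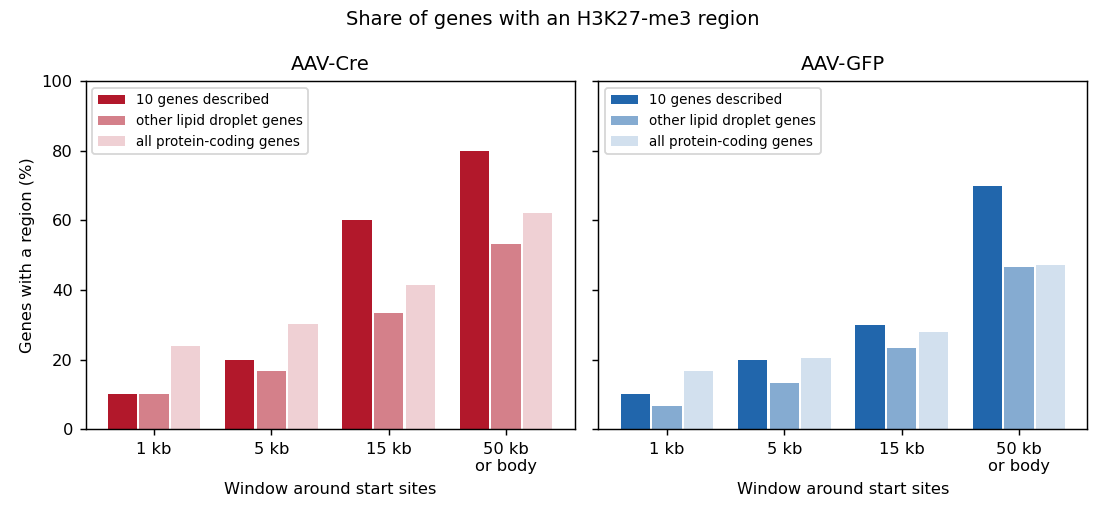
Percent of genes with an H3K27-me3 region by the distance allowed from a start site (1, 5 or 15 kb, or 50 kb and the gene body), for the 10 genes, 30 other lipid droplet genes and all 21938 protein-coding genes, with AAV-Cre in the left panel and AAV-GFP in the right. At 1 kb the 10 genes stand at 10.0% in both lists, below all genes, and at 50 kb at 80.0% and 70.0%, above them.

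The lists differed in properties of the peak call that touch every count given here. The AAV-Cre list held 59267 regions with a median width of 753 bp and a shortest width of 300 bp, and the AAV-GFP list 34586 regions with a median of 231 bp and a shortest of 120 bp. In the whole genome AAV-Cre regions covered 73.7 Mb and AAV-GFP regions 14.9 Mb. The share covered within 50 kb of start sites averaged 5.53% in AAV-Cre and 1.36% in AAV-GFP over all protein-coding genes. Over the 10 genes these means were 8.91% and 2.32%. Covered shares of single genes are to be read beside these means. A q-value of 0.05 or lower, the adjusted p-value that the peak call gave each region, was held by 88.6% of AAV-Cre regions and 46.8% of AAV-GFP regions. The depth of the libraries is unknown, and fold enrichments over input are therefore compared only within a list. As a check of the tissue, none of 10 hepatocyte genes (among them Alb, Apoa1 and Cps1) had a region within 15 kb in either list, whereas all 10 developmental regulators did in both. Of 12 genes of other liver cells, 11 (all but Vsig4) had a region in AAV-Cre and 8 in AAV-GFP. Of 6 adipocyte genes, 5 (all but Adipoq) had one in AAV-Cre, while AAV-GFP had one at 0 of them. The part of the peak call and of the cell types in the results below was not tested, other than by the thresholds named beside them.

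Around the 10 genes lay 44 regions of the AAV-Cre list and 35 of the AAV-GFP list. By at least 1 bp, 14 of the 44 (31.8%, with a Wilson 95% interval from 20.0 to 46.6% for counting error only) met a region of the control, a share that was 24.2% in the entire AAV-Cre list. In the other direction, all 35 (100%, from 90.1 to 100%) met a region of AAV-Cre. In the entire AAV-GFP list that share was 86.4%. Both intervals count each region as independent, although many regions are neighbouring pieces at a few genes, such as the 17 AAV-GFP regions at Cideb. The intervals are therefore too narrow, and no difference from the entire lists is read from them. The 14 shared AAV-Cre regions had a median width of 3593 bp, and the 30 regions found only in AAV-Cre one of 632 bp. A wide region meets another more easily under a rule of 1 bp, and these medians were not computed for the entire list. The contrast in width is therefore not read as particular to these genes. There were 0 regions around these genes found only in AAV-GFP. The AAV-GFP regions were mostly short pieces inside a wide AAV-Cre region, with a median width of 226 bp and a range from 120 to 1887 bp, whereas AAV-Cre widths ran from 375 to 7213 bp. Among the AAV-Cre regions, 10 were in the strongest 10% of their list by p-value, and 9 of those 10 overlapped AAV-GFP. The share that overlapped AAV-GFP among the strongest 10% of the entire list was not computed. These 9 are therefore not read as particular to these genes.

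**Figure D2:**
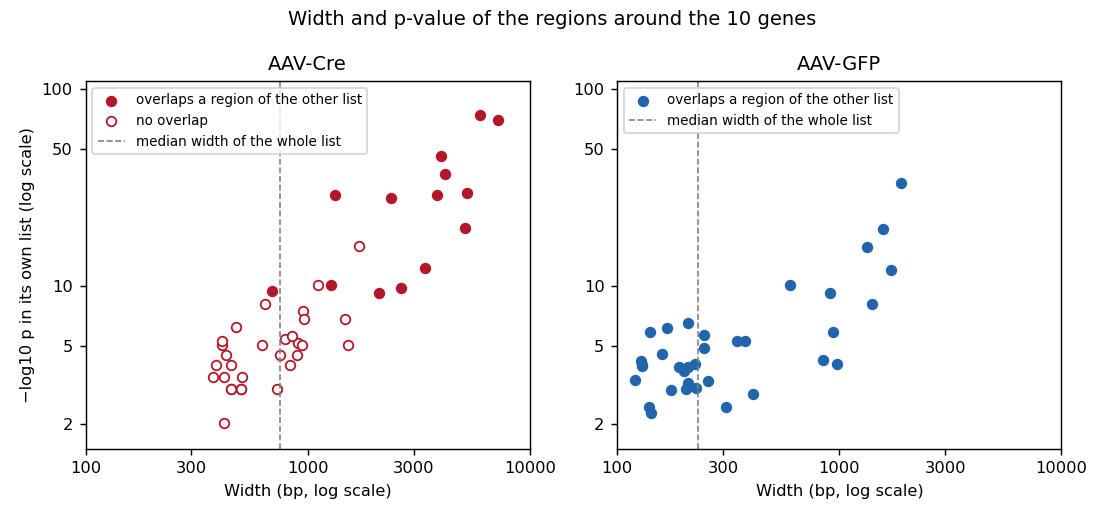
Width in bp (x axis, log scale) and −log10 p within its own list (y axis, log scale) of each region around the 10 genes, for the 44 AAV-Cre regions on the left and the 35 AAV-GFP regions on the right. Filled points overlap a region of the other list, open points do not, and the dashed line is the median width of the whole list. The 30 open AAV-Cre points lie mostly toward the narrow and weak end, where the median is 632 bp wide and that of the 14 filled ones 3593 bp, and every AAV-GFP point is filled. This contrast was not computed for the entire list.

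For 36 of the 44 AAV-Cre regions and 32 of the 35 AAV-GFP regions, the closest start site was that of another gene. The 8 AAV-Cre regions closest to one of the 10 genes were 7 at Cidea and 1 at Abhd5, and the 3 such AAV-GFP regions were all at Cidea. The genes stood in gene-dense sequence, with a median of 4 other start sites of protein-coding genes within 50 kb, against a median of 2 over all protein-coding genes. The ends of the range were Cideb with 8 neighbouring genes and Plin2 and Abhd5 with 0. The median distance from a start site to the nearest region over the 10 genes was 13550 bp for AAV-Cre regions and 35170.5 bp for those of AAV-GFP, and 26724.5 and 58275 bp over all protein-coding genes.

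**Figure D3:**
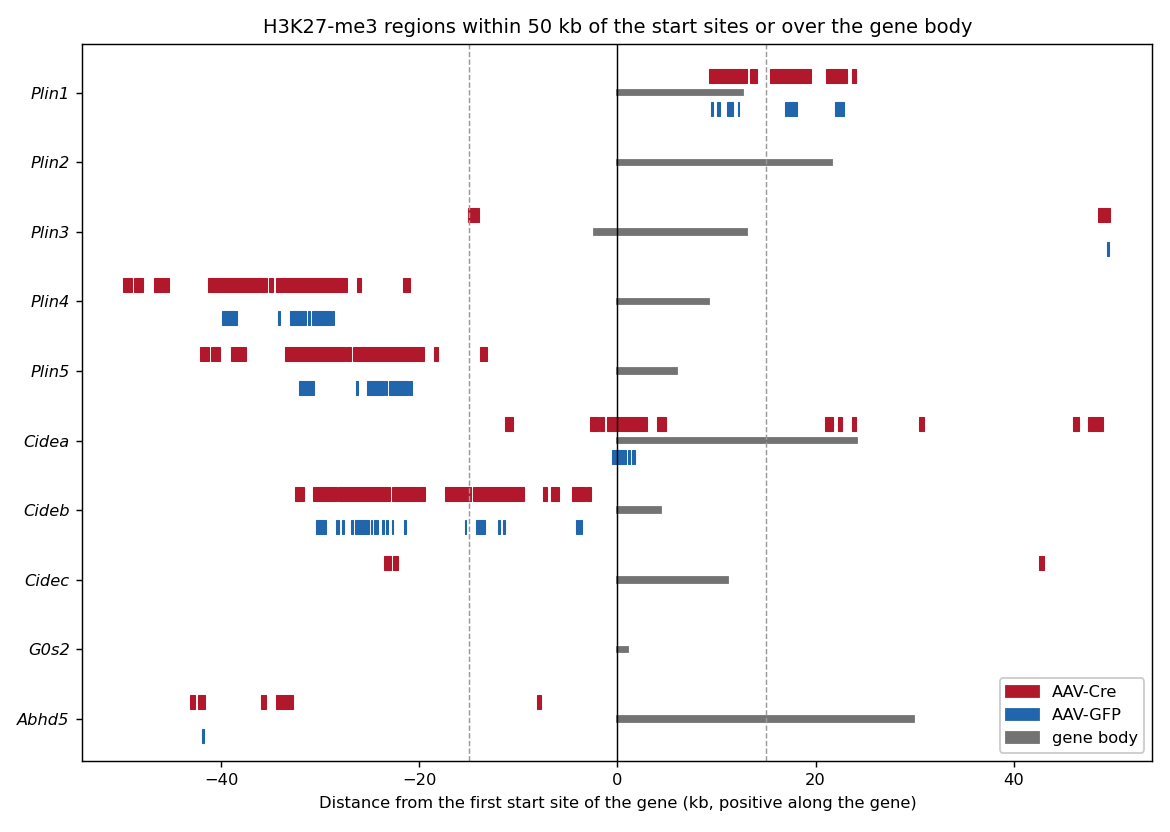
Position of every AAV-Cre region (red, above the gene line) and AAV-GFP region (blue, below it) relative to the first start site of each of the 10 genes, in kb along the direction of transcription, with the gene body in grey and dashed lines at 15 kb on either side. Cidea has regions over its start site in both lists, Plin1 has them over the end of its body, and Plin2 and G0s2 have none within 50 kb.

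Plin1 (ENSMUSG00000030546.14, chr7:79720218-79732903, minus strand, mm10) was marked over its end and not over its start. The AAV-Cre list held a region of 3817 bp at chr7:79719873-79723689, with a fold enrichment of 7.91 over input and a q-value of 1.6e-26, in the strongest 3.78% of that list. It covered exons 7 to 9 of 9 and part of the untranslated sequence, and its edge lay 8482 bp from the nearest Plin1 start site. The AAV-GFP list held 4 regions inside it, of 130, 601, 348 and 159 bp, which together covered 32.4% of it and touched the same 3 exons. The strongest of these was the one of 601 bp, at chr7:79721269-79721869, with a fold of 4.02 and a q-value of 1.8e-07. In both lists the mark thus lay over the last exons, with 27.4% of the Plin1 body inside an AAV-Cre region and 9.76% inside an AAV-GFP region.

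The marked end of Plin1 was the CpG-rich end of the gene. The body holds 232 CpG dinucleotides, of which 104 (44.8%) lay inside the AAV-Cre region, at 3.0 per 100 bp, against 1.39 per 100 bp in the rest of the body. Inside the AAV-GFP regions the density was 5.57 per 100 bp, against 1.42 outside. The sequences around the summits of the region closest to the Plin1 start in each list are given here since they show this composition in coding sequence, with CpG in capitals, on the plus strand of mm10 and so antisense to Plin1. The first, of 201 bp, is from AAV-Cre at chr7:79721521-79721721 and holds 26 CpG, and the second, of the same length, is from AAV-GFP at chr7:79723206-79723406 and holds 10.
Plin1 AAV-Cre summit: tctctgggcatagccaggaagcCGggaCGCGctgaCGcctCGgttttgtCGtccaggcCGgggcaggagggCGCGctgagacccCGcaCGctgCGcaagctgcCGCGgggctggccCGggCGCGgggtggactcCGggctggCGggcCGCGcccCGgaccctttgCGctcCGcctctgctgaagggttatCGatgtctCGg
Plin1 AAV-GFP summit: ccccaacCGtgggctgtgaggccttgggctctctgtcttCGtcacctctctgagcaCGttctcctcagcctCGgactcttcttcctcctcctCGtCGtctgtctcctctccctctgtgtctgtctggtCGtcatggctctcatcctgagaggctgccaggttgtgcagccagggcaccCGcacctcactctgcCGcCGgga

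The closest start site to the marked end of Plin1 was that of Kif7, a kinesin of the primary cilium, 4153 bp from the AAV-Cre region. Kif7 had an AAV-Cre region of 4159 bp over its own start site, at chr7:79713385-79717543, with a fold of 8.76 and a q-value of 2.9e-34, and 2 AAV-GFP regions of 905 and 167 bp inside it. A weaker AAV-Cre region of 754 bp with a q-value of 0.003 stood between the Kif7 start and the Plin1 end and had no AAV-GFP counterpart. Over the whole window, AAV-Cre had 5 regions that covered 11.2% of the 50 kb on either side of the start sites of Plin1, and AAV-GFP had 7 that covered 3.23%.

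Plin2 (ENSMUSG00000028494.12, chr4:86648386-86670060, minus strand) had no region of either list over its body or within 50 kb. The nearest AAV-Cre region was 98927 bp from its start site and the nearest AAV-GFP region 118352 bp. Among the 10 genes these were the largest distances in each list, for the coat protein most closely tied to hepatocyte droplets. No other protein-coding start site lay within 50 kb of it.

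Plin3 (ENSMUSG00000024197.10, chr17:56277476-56292873, minus strand) had no region over its body, and its call within 15 kb rested on 1 region near a neighbour. This AAV-Cre region of 1108 bp at chr17:56304448-56305555 began 13937 bp upstream of the Plin3 start site and 100 bp from a start site of Uhrf1, the gene of a factor that guides maintenance DNA methylation. It overlapped an exon and untranslated sequence of Uhrf1, had a fold of 4.34 and a q-value of 1.7e-08, and did not overlap AAV-GFP. At the other end of the window, an AAV-Cre region of 1273 bp with a closest start site in Fem1a overlapped an AAV-GFP region of 209 bp, which lay 49386 bp from the Plin3 start and had a q-value of 0.23. The summit sequence of the first region, at chr17:56304784-56304984 in an intron of Uhrf1, is printed since the Plin3 call depends on it. Its CpG, of which it holds 5, are in capitals, and it is on the plus strand.
Plin3 AAV-Cre summit: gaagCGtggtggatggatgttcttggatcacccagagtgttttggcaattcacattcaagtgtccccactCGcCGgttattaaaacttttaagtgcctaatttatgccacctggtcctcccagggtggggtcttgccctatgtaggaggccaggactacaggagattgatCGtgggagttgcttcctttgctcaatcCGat

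Plin4 (ENSMUSG00000002831.13, chr17:56100591-56109803) and Plin5 (ENSMUSG00000011305.11, chr17:56111601-56117596) lie side by side on the minus strand and shared their regions. Neither body was touched by a region in either list. Upstream of both genes, at Sema6b, the gene of a membrane-bound semaphorin, lay the strongest H3K27-me3 regions found around the 10 genes. An AAV-Cre region of 7213 bp at chr17:56137082-56144294 spanned the Sema6b start site, with a fold of 12.8, a q-value of 1.4e-65 and rank 199 of 59267. The next, of 5993 bp at chr17:56145119-56151111, was intergenic, with a fold of 14.3, a q-value of 2e-69 and rank 138. AAV-GFP had 5 regions inside the first, covering 58.9% of it, and 1 inside the second, covering 26.1%. The strongest AAV-GFP region, of 1887 bp over the Sema6b start site at chr17:56138739-56140625, had a fold of 7.4, a q-value of 6.9e-29 and rank 95 of 34586.

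This domain was in both lists and stood outside the window of 15 kb. The nearest region to Plin4 was 20956 bp away in AAV-Cre and 28568 bp in AAV-GFP, so Plin4 was not marked within 15 kb in either list. Plin5 was called only in AAV-Cre, through 1 region of 728 bp over an exon of Sema6b at chr17:56130759-56131486, 13163 bp from a Plin5 start site, while its nearest AAV-GFP region was at 20775 bp. That region was among the weakest of its list, with a fold of 2.34, a q-value of 0.057 and a rank at 89.0% of the list. With a q-value of 0.05 or lower, Plin5 was marked in neither list. Within 50 kb, Plin4 and Plin5 each had 8 AAV-Cre and 6 AAV-GFP regions, covering 18.1% of the window of each gene in AAV-Cre, and 5.81% and 5.79% in AAV-GFP.

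The summit sequences of the strongest region of each list in this window, and of the weak region that gave Plin5 its call, are given for contrast, with CpG in capitals, on the plus strand of mm10. The AAV-GFP summit window, at chr17:56139922-56140122 in an intron of Sema6b near its start, holds 23 CpG in 201 bp. The AAV-Cre window, at chr17:56149002-56149202, lies in the separate intergenic region and holds 8. The windows thus do not compare the lists at the same site. The weak window, at chr17:56130769-56130969 over a Sema6b exon, holds 2.
Sema6b domain, AAV-GFP summit: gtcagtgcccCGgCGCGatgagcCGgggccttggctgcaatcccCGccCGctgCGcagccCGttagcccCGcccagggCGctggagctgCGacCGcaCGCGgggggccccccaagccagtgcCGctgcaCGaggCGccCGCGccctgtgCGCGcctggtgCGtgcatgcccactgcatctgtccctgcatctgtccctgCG
Sema6b domain, AAV-Cre summit: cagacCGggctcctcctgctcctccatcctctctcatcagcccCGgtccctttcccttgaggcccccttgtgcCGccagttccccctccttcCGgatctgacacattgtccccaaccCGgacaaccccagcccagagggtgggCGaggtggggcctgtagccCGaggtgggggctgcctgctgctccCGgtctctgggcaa
Plin5 call, AAV-Cre summit: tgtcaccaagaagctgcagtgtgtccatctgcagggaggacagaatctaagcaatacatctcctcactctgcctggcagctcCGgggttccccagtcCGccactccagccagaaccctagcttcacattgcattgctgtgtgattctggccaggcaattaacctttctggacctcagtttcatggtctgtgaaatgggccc

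**Figure D4:**
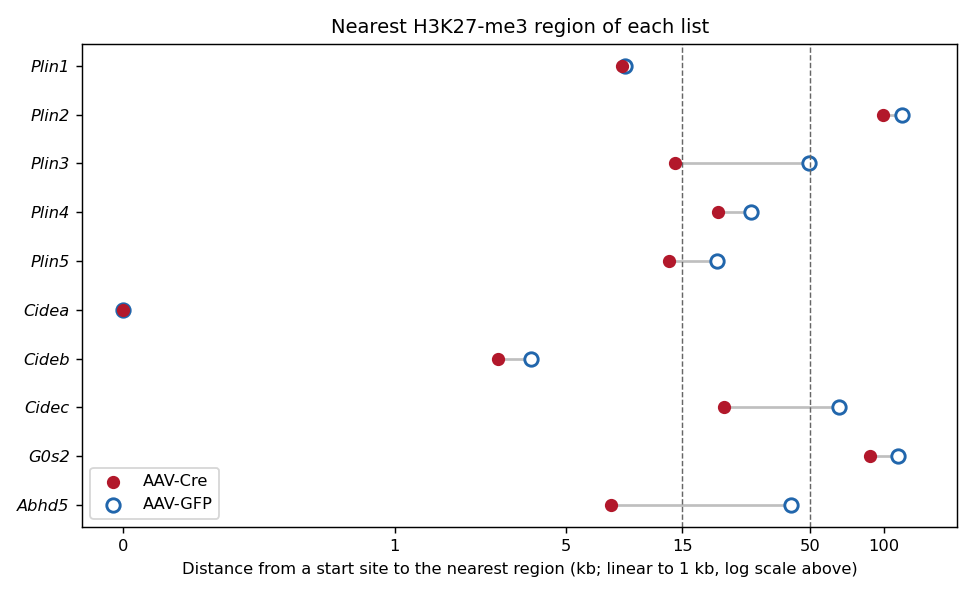
Distance in kb from a start site to the nearest AAV-Cre region (filled red) and AAV-GFP region (open blue) for each of the 10 genes, on an axis that is linear to 1 kb and logarithmic above, with dashed lines at 15 and 50 kb. The points lie at 0 in both lists for Cidea, within 15 kb in both lists for Plin1 and Cideb, on either side of 15 kb for Plin3, Plin5 and Abhd5, and beyond 50 kb in both lists for Plin2 and G0s2.

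The order of the genes by distance was much the same at its ends in both lists. In AAV-Cre the nearest region was at 0 bp for Cidea, 2651 bp for Cideb, 7664 bp for Abhd5, 8482 bp for Plin1, 13163 bp for Plin5, 13937 bp for Plin3, 20956 bp for Plin4, 22159 bp for Cidec, 88033 bp for G0s2 and 98927 bp for Plin2. In AAV-GFP it was at 0 bp for Cidea, 3603 bp for Cideb, 8721 bp for Plin1, 20775 bp for Plin5, 28568 bp for Plin4, 41773 bp for Abhd5, 49386 bp for Plin3, 65574 bp for Cidec, 113996 bp for G0s2 and 118352 bp for Plin2. Cidea and Cideb led both orders and G0s2 and Plin2 closed them, whereas Abhd5 came before Plin1, Plin5 and Plin4 in AAV-Cre and after them in AAV-GFP. Just inside the window of 15 kb stood Plin3 at 13937 bp in AAV-Cre and Plin1 at 8721 bp in AAV-GFP, and just outside it Plin4 at 20956 bp and Plin5 at 20775 bp. With 1 list per group, these distances have no spread.

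Cidea (ENSMUSG00000024526.9, chr18:67343604-67367785, plus strand), known best from brown fat and fatty liver, was the 1 gene of the 10 with the mark over its start site. The AAV-Cre region there, chr18:67342561-67346550, was 3990 bp wide, spanned exon 1 with its untranslated sequence and ran into the first intron. It had a fold of 9.12, a q-value of 6.7e-43 and rank 924, in the strongest 1.56% of its list. The AAV-GFP region over the start site, chr18:67343095-67344423, was 1329 bp wide, with a fold of 4.57, a q-value of 1.4e-12 and rank 1165, in the strongest 3.37% of its list. It was followed by AAV-GFP regions of 141 and 378 bp in the intron, and the 3 together covered 46.3% of the AAV-Cre region.

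Beyond that domain, Cidea had regions in AAV-Cre alone. The other 10 AAV-Cre regions within 50 kb or over the body were 375 to 1469 bp wide with q-values from 2.1e-05 to 0.057. None of them overlapped AAV-GFP, but in the entire AAV-Cre list only 24.2% of regions did. Of the 10, 4 lay over the body, 3 in introns and 1 over exon 5, the last exon. Another 3 lay upstream, at 1344, 1827 and 10540 bp from the start site, and the remaining 3 lay towards Tubb6, the gene of a beta-tubulin. Altogether 23.0% of the Cidea body was inside AAV-Cre regions and 5.54% inside AAV-GFP regions, and the CpG density inside them was 1.73 and 3.58 per 100 bp, against 1.12 in the part of the body without an AAV-Cre region. Of the window around its start site, AAV-Cre regions covered 11.4% and AAV-GFP regions 1.85%, against means of 5.53% and 1.36% over all protein-coding genes.

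Cideb (ENSMUSG00000022219.10, chr14:55754050-55758458, minus strand), the Cide protein of normal liver, was bordered by the mark but not covered by it. None of the regions touched its body, and the nearest began 2651 bp upstream in AAV-Cre and 3603 bp upstream in AAV-GFP. All of them lay over or beside the neighbouring genes Ltb4r2 and Ltb4r1, which encode leukotriene B4 receptors, Adcy4, an adenylyl cyclase, and Ripk3, a kinase of necroptosis. The nearest AAV-Cre region, 476 bp over the Ltb4r2 start site at chr14:55761109-55761584, was found only in that list, with a q-value of 8.4e-05. The next, of 1330 bp over Ltb4r2 at chr14:55761716-55763045, had a fold of 7.38 and a q-value of 1.3e-26, and held 2 AAV-GFP regions of 190 and 246 bp.

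Farther upstream of Cideb the mark lay in long regions in AAV-Cre and in shorter pieces in AAV-GFP. An AAV-Cre region of 5198 bp spanned the Adcy4 start site, at chr14:55781418-55786615 with a fold of 8.04 and a q-value of 1.8e-27, and overlapped 8 AAV-GFP regions that covered 54.1% of it. The longest of these, 1409 bp over the Adcy4 start site, had a q-value of 1.4e-05. A further AAV-Cre region of 2383 bp covered the Ripk3 start site and overlapped 2 AAV-GFP regions. In all, Cideb had 10 AAV-Cre and 17 AAV-GFP regions within 50 kb, but they covered 22.6% of its window in the former and 6.2% in the latter list. Cideb was the only one of the 10 genes besides Plin1 with more regions in AAV-GFP than in AAV-Cre, and in both cases the AAV-GFP regions covered less sequence.

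Cidec (ENSMUSG00000030278.11, chr6:113424634-113435760, minus strand), known as Fsp27 from white fat and fatty liver, had regions in AAV-Cre alone and none over its body. Of its 3 AAV-Cre regions, 2 were at Il17re, the gene of an interleukin receptor chain. The first, of 642 bp over the Il17re start site at chr6:113458630-113459271, had a fold of 3.86 and a q-value of 1.5e-06. The other, of 453 bp, was the nearest to a Cidec start site, at 22159 bp, and had a q-value of 0.057. The third, also of 453 bp and with a q-value of 0.056, was near the start of Ttll3, a tubulin ligase gene. AAV-GFP had 0 regions in this window, and its nearest lay 65574 bp away.

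G0s2 (ENSMUSG00000009633.3, chr1:193272161-193273217, minus strand), the inhibitor of Pnpla2, had no region within 50 kb in either list. Its nearest AAV-Cre region was 88033 bp away and its nearest AAV-GFP region 113996 bp. The gene is short, with 1057 bp and 36 CpG, or 3.41 per 100 bp, so that sequence rich in CpG was unmarked here.

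Abhd5 (ENSMUSG00000032540.16, chr9:122351608-122381524, plus strand), the activator of Pnpla2, had no region over its body and 5 AAV-Cre regions upstream. The nearest, of 420 bp at chr9:122343525-122343944, lay 7664 bp upstream in intergenic sequence, and Abhd5 had the closest start site. It was a weak region, with a fold of 2.43, a q-value of 0.023 and a rank at 75.6% of the list, and it did not overlap AAV-GFP. With an equal number of top regions in both lists, Abhd5 was marked in neither. Stronger was a region of 1695 bp at chr9:122317133-122318827, with a fold of 5.26 and a q-value of 3.9e-14, which was also found only in AAV-Cre and was the 1 region among the strongest 10% around these genes without an AAV-GFP overlap. Its closest start site was that of Ano10, 22710 bp away. The 1 AAV-GFP region, of 128 bp with a q-value of 0.04, lay 41773 bp upstream inside an AAV-Cre region of 694 bp. The summit sequence of the nearest AAV-Cre region, at chr9:122343628-122343828 on the plus strand with its 3 CpG in capitals, is given since the Abhd5 call depends on it.
Abhd5 AAV-Cre summit: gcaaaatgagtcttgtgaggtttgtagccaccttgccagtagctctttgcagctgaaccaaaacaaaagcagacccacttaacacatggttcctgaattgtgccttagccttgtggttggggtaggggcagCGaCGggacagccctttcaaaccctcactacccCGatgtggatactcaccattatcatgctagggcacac

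RefSeq start sites on GRCm38.p6 gave 11 promoters, from 250 bp before to 50 bp after the start, for 9 of the 10 genes, all but Cidea, the gene whose start site was marked in both lists. None of these 11 promoters overlapped a region in either list. This restates that the start sites of these 9 genes had no region within 1 kb, and is no separate result. Of 20150 promoters of protein-coding genes, 3792 overlapped a region in AAV-Cre and 2254 in AAV-GFP. CpG counts in the 300 bp ran from 2 in Plin1 to 32 in Abhd5, with a median of 9, against a median of 14 over all promoters, and the median GC content was 60.3% against 57.0%. The upstream sequences of 3 genes are shown for the range of composition: Plin2 and G0s2, the genes without a region within 50 kb, and Abhd5, the promoter richest in CpG. Each is the 250 bp before the RefSeq start, on the gene's strand with CpG in capitals, and lies at chr4:86670060-86670309 on the minus strand for Plin2, chr1:193273189-193273438 on the minus strand for G0s2 and chr9:122351366-122351615 on the plus strand for Abhd5. They hold 6, 11 and 22 CpG. By the gene annotation used for the regions, their last 1, 29 and 8 bases are untranslated sequence of the gene.
Plin2 upstream: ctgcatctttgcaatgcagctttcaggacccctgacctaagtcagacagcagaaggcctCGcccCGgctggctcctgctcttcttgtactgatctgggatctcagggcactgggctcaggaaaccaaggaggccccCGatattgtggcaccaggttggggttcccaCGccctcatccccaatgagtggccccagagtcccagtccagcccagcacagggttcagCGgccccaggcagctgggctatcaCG
G0s2 upstream: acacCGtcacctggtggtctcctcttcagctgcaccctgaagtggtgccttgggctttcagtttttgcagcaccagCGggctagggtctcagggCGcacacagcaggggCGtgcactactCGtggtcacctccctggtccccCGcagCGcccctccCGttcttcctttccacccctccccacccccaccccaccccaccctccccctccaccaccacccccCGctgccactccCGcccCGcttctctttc
Abhd5 upstream: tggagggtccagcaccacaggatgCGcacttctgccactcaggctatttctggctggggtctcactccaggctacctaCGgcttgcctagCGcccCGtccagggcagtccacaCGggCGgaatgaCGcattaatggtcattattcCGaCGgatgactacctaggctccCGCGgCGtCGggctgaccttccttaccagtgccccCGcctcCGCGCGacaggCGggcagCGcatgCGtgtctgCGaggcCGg

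The promoters were searched on both strands for AGGTCA, the half-site bound by PPARα and other nuclear receptors, since several of these genes are known PPARα targets in liver. It was found in 4 of the 11 promoters (36.4%), those of Plin2 and Abhd5 and both of Plin5, and in 14.4% of all 20150 promoters. A direct repeat of the half-site with a spacer of 1 base was in none of the 11 and in 0.0496% of all promoters. A TATAAA box in the 50 bp before the start, searched on the gene's strand, was in none of the 11 and in 3.06% of all promoters. These are matches of letters in a short window, and the windows overlap for the paired start sites of Plin5.

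The other lipid droplet genes were marked no more often than protein-coding genes at large. Of 30 genes for neutral lipases, triglyceride synthesis, droplet formation and their regulators, 10 (33.3%) had a region within 15 kb in AAV-Cre and 7 (23.3%) in AAV-GFP, against the 41.5% and 27.9% of all genes given above. Of the lipases, Pnpla2, the first lipase of triglyceride breakdown, had its nearest region at 6277 bp in AAV-Cre and 6513 bp in AAV-GFP. Lipe, hormone-sensitive lipase, at 13736 and 19658 bp, and Mgll, monoglyceride lipase, at 12425 and 124474 bp, were marked within 15 kb only in AAV-Cre. With the start sites of all transcripts Lipe was marked in both lists, and with equal numbers of top regions in neither. When a region counted only for the gene with the closest start site, Pnpla2 and Lipe were marked in neither list. Pnpla3, a lipase gene tied to fatty liver, had a region 61 bp from a start site in AAV-Cre and 1952 bp in AAV-GFP.

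Among genes of synthesis and droplet formation, the calls were again mostly at some distance from the start. Dgat1, which makes triglyceride, had its nearest region at 3902 bp in AAV-Cre and 4256 bp in AAV-GFP, and Agpat2, an acyltransferase, at 14279 and 23713 bp, so that Agpat2 was called only in AAV-Cre, and in neither list when a region counted only for the gene with the closest start site. Fitm2, which is needed for droplet budding, stood at 11993 and 12930 bp, and Aup1, a droplet protein, at 4264 and 14079 bp. By the same rule of the closest start site, Aup1 was marked in neither list and Dgat1 only in AAV-GFP. Tmem159, the partner of seipin, had a region over a start site in both lists. Pparg, the adipocyte regulator, had regions over a start site in both lists and 45 AAV-Cre and 15 AAV-GFP regions within 50 kb or over its body, which covered 25.8% and 2.55% of its window. The window of Pnpla3 was covered more, at 55.9% and 17.6%, by 14 AAV-Cre and 41 AAV-GFP regions. The other 20 genes (66.7%), among them Dgat2, Bscl2, Ppara and Ppargc1a, had no region within 15 kb in either list, against 57.2% of all protein-coding genes. AAV-GFP alone marked 0 of the 30 within 15 kb, against 1.22% of all protein-coding genes. This count of 0 is therefore not read as particular to these genes.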

How the data were processed

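The authors immunoprecipitated H3K27-me3 chromatin from liver tissue with the antibody Ab6002. Reads were mapped to mm10 with BWA 0.7.13 and filtered with SAMtools 1.2 and Picard 1.126 (versions as given in the submitters' processing notes) in the AQUAS histone pipeline with pooled input as control, peaks were called with MACS, and peaks overlapping across the replicates were kept. For each peak the deposited lists give a position, a fold enrichment over input (a ratio), the −log10 of a p-value and of a q-value, the summit and a display score, which was not used. They hold no read counts, so depth is unknown. Broad domains were called as narrow peaks, which can split a domain into several regions.

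Groups were taken from the labels. Start sites were those of basic transcripts of protein-coding genes in GENCODE M21 on GRCm38, the assembly that mm10 names. Marked genes were those with a start site at most 15 kb from the edge of a region. Ranks order the regions of a list by p-value. Exons were numbered in the transcript with the most exons. Promoter sequences came from RefSeq (GRCm38.p6). The genes and gene lists were chosen with earlier results of these data known. All 10 genes were named, with every other lipid droplet gene marked within 15 kb in either list and the neighbours whose start sites were closest. Python 3.11, pandas 2.3.3 and pysam 0.24.0 were used, and the overlap and distance functions were tested on simulated data. Alternatives were a q-value threshold of 0.05, equal numbers of top regions, other windows, all transcripts and other definitions of overlap. A lower limit of 300 bp on width, and giving each region only to the gene with the closest start site, were alternatives chosen after seeing the data.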

Additional observations from a re-analysis of the deposited data

How the results depend on the processing

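No paired analysis was possible because each group has 1 list made from both replicates, and for the same reason no replicate could be left out. The counts of marked genes depended mainly on the window and on which gene a region was counted for. With a window of 5 kb, 2 of the 10 genes were marked in AAV-Cre and 0 only in AAV-Cre, and 5 and 4 of the 30 other lipid droplet genes were marked in AAV-Cre and AAV-GFP. Of all protein-coding genes, 30.1% were marked in AAV-Cre with this window, 20.5% in AAV-GFP and 10.2% only in AAV-Cre. With 50 kb, alone or with the gene body, 7 of the 10 were marked in AAV-GFP and 1 only in AAV-Cre, and 16 and 14 of the 30 in AAV-Cre and AAV-GFP. With equal numbers of top regions, 1 gene (Plin3) was marked only in AAV-Cre. When a region counted only for the gene with the closest start site, 2 genes (Abhd5 and Cidea) were marked in AAV-Cre, 1 (Cidea) in AAV-GFP and 1 (Abhd5) only in AAV-Cre, and 5 of the 30 in AAV-Cre. A q-value of 0.05 or lower left 5 genes in AAV-Cre and 2 only in AAV-Cre, both without Plin5. Start sites of all transcripts and a minimum width of 300 bp changed no call of the 10 genes. Start sites of all transcripts gave 11 of the 30 in AAV-Cre, with Lpin2 added, and 8 in AAV-GFP, with Lipe added. Equal numbers of top regions left 9 of the 30 in AAV-Cre, without Lipe. Shares of all protein-coding genes are given here only for the alternative windows. Whether the counts under the other alternatives differ from those of genes at large was therefore not tested. Of the AAV-Cre regions near the 10 genes, 4.55% overlapped AAV-GFP over at least 0.5 of their length, and 26.3 to 43.2% under the other definitions. The cause of these changes, beyond the construction of each alternative, was not tested.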
